A study of Mus musculus with 18 samples.

Results

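Cortical tissue lacking both Dmrt3 and Dmrt5 was compared with wild-type cortical tissue at E12.5, a midgestation stage when the first cortical neurons form. The 5 libraries labelled Dmrt3;Dmrt5 KO (here the double KO) were set against the 4 labelled WT, 9 of the 18 libraries of the series. The embryos were C57BL/6 mice, and the double KO differs from WT by loss of both genes, with no other allele or agent named in the labels. The sources used here do not say how the alleles were made, whether each library is 1 embryo, or which litters were used. The p-values therefore measure the spread between these libraries, which may be technical. The other 9 libraries, 5 of Dmrt3 KO and 4 of Dmrt5 KO, entered the model and are compared with the double KO at the end. RNA was sequenced in bulk, and for every gene below fewer cells of a type and less RNA per cell cannot be told apart. Levels are scaled CPM, the counts of a gene relative to its library's total, and are compared within a gene, not between genes. Of 38355 genes listed, 16236 passed the filter on low counts and were tested with edgeR's quasi-likelihood test. A gene is called, and said to have risen or fallen, at a Benjamini-Hochberg adjusted p under 0.05 over all tested genes. Errors of log2 fold changes are standard errors (SE).

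Dmrt3 and Dmrt5 are transcription factors with a DM domain, the DNA-binding fold first known from sex determination in flies and worms. In the embryonic forebrain they are made by progenitors of the pallium, the dorsal part that forms the cortex, in a gradient that is highest toward the medial edge. There the cortical hem releases Wnt and Bmp signals and borders the choroid plexus, while the ventral part, the subpallium, makes GABAergic neurons under Gsx2 and the Dlx genes. The current symbol of Dmrt5 is Dmrta2, and it is used below for the transcript.

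Several libraries stood apart from the rest of their group. Genes of mesenchyme, the connective tissue around the brain, summed to 2263 CPM in double KO replicate 4 and to 387, 170, 170 and 67.4 CPM in double KO replicates 1, 2, 3 and 5. In WT replicates 1 to 4 the same 15 genes summed to 1209, 1245, 820 and 2579 CPM. Replicate 4 therefore lay inside the WT range for this tissue and the other 4 double KO libraries lay below it. Replicate 4 also lay with WT on the second principal component of all tested genes (33.3% of the variance). It stood there at -27.5, WT at -58.9 to -26.7 and the other 4 double KO libraries at 40.9 to 50.1. On the first component (39.0%) the groups overlapped, with WT replicate 2 at 76.2 and double KO replicate 5 at -85.8. Double KO replicate 5 differed in another way: the slope of log2 CPM on log2 transcript length was 1.21, against 0.846 to 0.969 in the other double KO libraries and 0.692 to 1.13 in WT. Red blood cell genes summed to 16599 and 9180 CPM in WT replicates 2 and 3 and to between 1253 and 5698 CPM in the other 7 libraries. Xist, the transcript of the inactive X chromosome, was high in 2 of 4 WT and 3 of 5 double KO libraries, so both sexes were present in both groups. Total counts ran from 19602718 to 32873452 in WT and from 21170996 to 26637649 in the double KO.

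**Figure D1:**
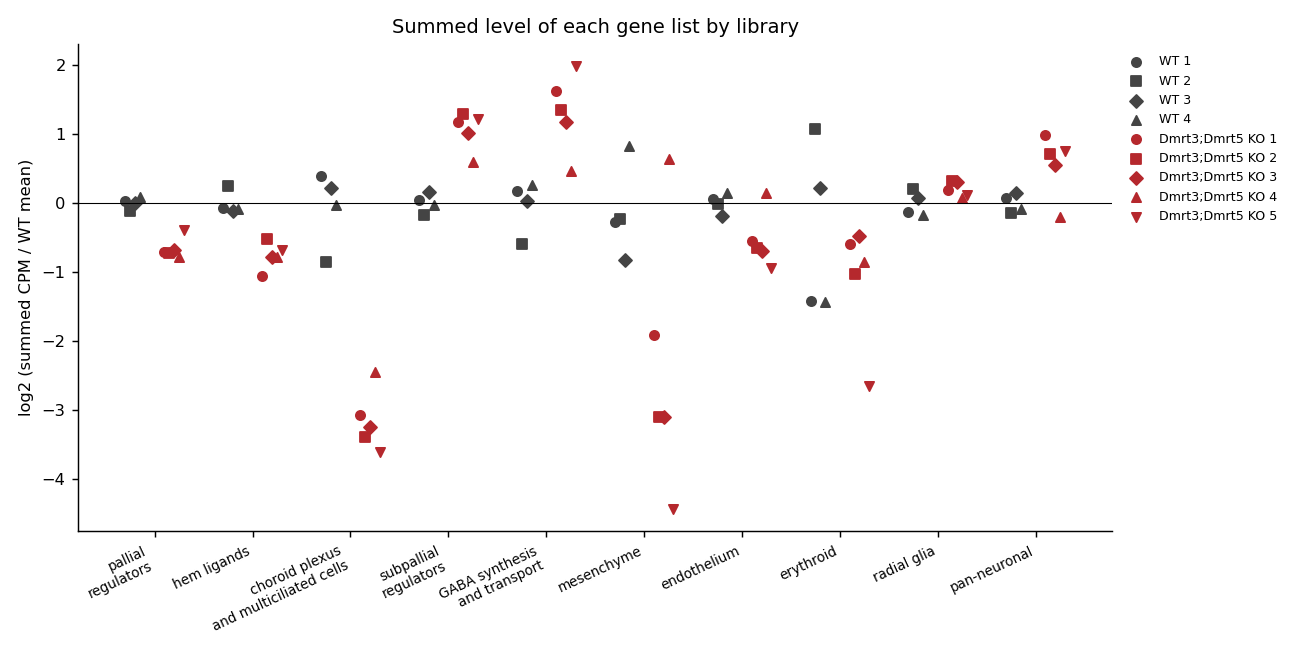
Summed level of 10 gene lists in each library, as log2 of the summed CPM over the mean of the 4 WT libraries (black, WT; red, double KO; the marker shape gives the replicate). Double KO replicate 4 (upward triangle) lies with WT for mesenchyme and endothelium, while for choroid plexus genes all 5 double KO libraries lie below all 4 WT libraries.

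Processed pseudogenes, intronless copies of messenger RNAs, formed a further difference between the groups. Between 2055 and 2228 of them had at least 1 count in the WT libraries and between 1594 and 1662 in the double KO libraries. Numbers in Dmrt3 KO ran from 1699 to 1871, and Dmrt5 KO held 1708, 1820, 2083 and 2223 in replicates 1, 2, 4 and 5. Dmrt5 KO libraries thus lay both below and inside the WT range, and its replicate 5 had the most counts of the series (33072896). Of 606 processed pseudogenes tested, 170 were called lower in the double KO and 1 higher, with a median log2 fold change of -0.93. The 1 was BC002163, named after its values were seen (1.19 to 7 CPM, adjusted p = 0.00738). The summed level of the 606 tested processed pseudogenes overlapped between the groups, at 880 to 1833 CPM in WT and 773 to 1229 CPM in the double KO. Their reads can be shared with the parent genes, and no preparation or sequencing dates of the libraries were at hand. What lies behind this difference was not tested, and within WT and the double KO it cannot be told apart from genotype. A fit with the number of detected processed pseudogenes as a covariate, a setting added after the data had been seen, is therefore given beside the main lists. With it 5 pallial, 2 intermediate progenitor, 4 glutamatergic neuron, 1 hem ligand, 1 midline factor, 1 Wnt receptor, 3 choroid plexus and 1 eye gene were lower, and 1 gene each of the subpallial, medial ganglionic eminence and antihem lists was higher. In all other lists described below, GABA, catecholamine, hippocampal and Cajal-Retzius genes included, 0 were called with it.

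**Figure D2:**
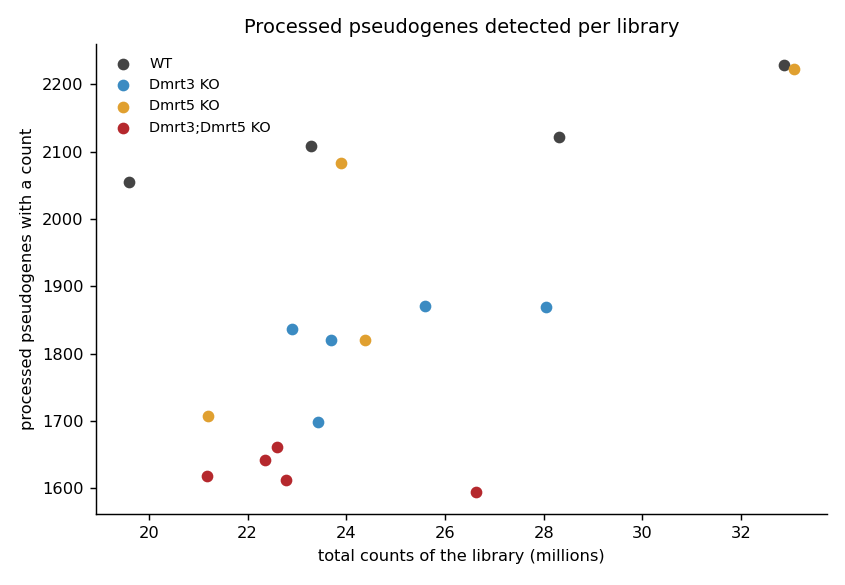
Number of processed pseudogenes with at least 1 count (vertical axis) against the total counts of a library (horizontal axis), for the 18 libraries coloured by genotype. The 5 double KO libraries lie between 1594 and 1662 and the 4 WT libraries between 2055 and 2228, including libraries of similar depth.

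Many genes differed between the double KO and WT, and the falls were larger than the rises. In the double KO 393 genes rose, 2.42% of those tested, and 619 fell, 3.81% of those tested. These shares are the background for the list counts below, and a single call on a short list is not read as a result about that list. The median called gene rose 1.94-fold or fell 3.06-fold. Changes over 4-fold were made by 20 genes that rose and 209 that fell, and over 16-fold by 0 and 29. Among protein-coding genes 362 rose and 405 fell, and processed pseudogenes made up 27.5% of all falls. The median log2 fold change over all tested genes was 0.01. All 5 double KO libraries lay above all 4 WT libraries for 2.57% of tested genes, and below them for 3.4%.

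The numbers of calls depended on double KO replicate 4, on the libraries fitted and on the covariates. Without replicate 4, 734 genes were higher and 1272 lower (4.52% and 7.83%). With only the WT and double KO libraries in the fit, 131 were higher and 237 lower (0.839% and 1.52%), of which 131 and 236 were also called in the fit of all 18 libraries. With the mesenchyme score as a covariate 122 were higher and 283 lower (0.751% and 1.74%), and with the length slope 1588 and 1582 (9.78% and 9.74%). With the pseudogene covariate 7 were higher and 33 lower (0.0431% and 0.203%), and the median SE of the genes called in the fit without it rose from 0.21 to 0.40 for the rises and from 0.34 to 0.65 for the falls. The median log2 fold change of those same genes moved from 0.96 to 0.92 and from -1.61 to -1.30. None of the 362 protein-coding genes that rose and 3 of the 405 that fell (Ecm2, Tpm3-rs7 and Apcdd1) had the opposite sign with the covariate. A fixed rule selected 128 genes for description, 120 of them called. Of these, 67 kept their call under the 17 other settings tried (other tools, filters, covariates and sets of libraries) and 24 kept it also with the pseudogene covariate. The 24 were Dmrt3, Dmrta2, Emx1, Emx2, Lhx2, Fezf2, Neurog2, Eomes, Wnt3a, Lmx1a, Neurod2, Neurod6, Nhlh1, Slc17a7, Sv2b, Fzd9, Ccno, Mcidas, Folr1, Dct, Six3, Slc30a3, Ackr3 and Sfrp2. By contrast, 27 lost their call when at least 1 library was left out, with adjusted p up to 0.181. Among them were Sp8, Cd24a, Celf3, Insm1, Nr4a2, Tmem163, Zic4, Id3, Fzd1, Fzd6, Fgfr3, Dll3, Sox1, Ednrb, Cdkn1a, Ephb1, Efnb1, Pcdh8, Rara, Tac1, Tal2, Gbx2, Slc4a1, Krt8, Krt18 and Egr1, and their changes below are to be read with that limit.

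**Figure D3:**
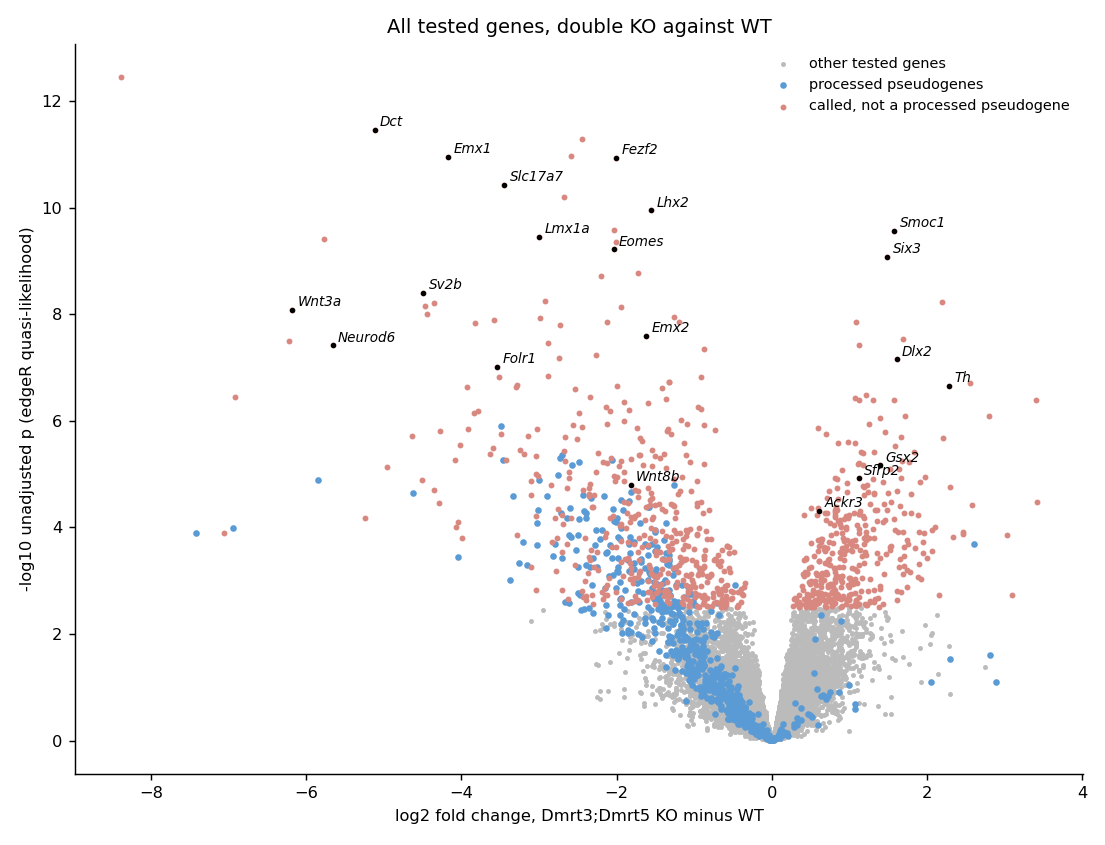
Each tested gene by its log2 fold change, double KO minus WT (horizontal axis), and by -log10 of its unadjusted p (vertical axis). Red points are called genes, grey points are not called, and black points are labelled examples. Processed pseudogenes (blue) lie mostly to the left, with a median of -0.93, and the labelled pallial and hem genes lie to the left of and above most of them.

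The transcripts of the 2 deleted genes were read first. Dmrt3 (ENSMUSG00000042372) held 1664, 1158, 1370 and 1796 counts in the WT libraries and 0, 0, 2, 9 and 8 counts in double KO replicates 1 to 5. Dmrta2 stood at 159, 220, 216 and 178 CPM in WT and at 1.66, 4.16, 4.36, 4.9 and 2.65 CPM in the double KO. Both transcripts were thus near absent in every double KO library and present in every WT library. The fold changes were -8.39 ± 0.44 and -5.77 ± 0.46 on the log2 scale (adjusted p 5.8e-09 and 4.95e-07). Dmrta1, a related DM-domain gene, was not called (33.6 to 55 CPM in WT, 34.5 to 70.4 in the double KO, log2 0.22 ± 0.19, adjusted p = 0.659).

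The letters ACATTGT, the core of the motif bound by this family of factors, were searched on both strands in the 250 bases before each RefSeq start (GRCm38.p6). The window of Dmrta2 holds 1 match, shown here because this gene is itself one of the factors, with the match in capitals (chr4:109977775-109978024, + strand, 55 bases before the start).
Dmrta2: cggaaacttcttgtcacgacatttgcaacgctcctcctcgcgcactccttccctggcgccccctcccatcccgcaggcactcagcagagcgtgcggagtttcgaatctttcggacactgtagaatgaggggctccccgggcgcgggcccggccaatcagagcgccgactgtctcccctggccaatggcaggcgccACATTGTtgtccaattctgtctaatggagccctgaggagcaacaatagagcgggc
For comparison, 57 bases around the match are given for a synaptic vesicle gene that fell and a ventral regulator that rose, at chr7:75220069-75220125 (- strand) and chr16:91225456-91225512 (+ strand).
Sv2b: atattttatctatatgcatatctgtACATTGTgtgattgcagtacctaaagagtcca
Olig2: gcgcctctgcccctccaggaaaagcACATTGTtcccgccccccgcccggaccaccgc
A match was present in 1.32% of 15050 windows of tested genes, in 3 of 391 windows of genes that rose (0.767%) and in 8 of 433 windows of genes that fell (1.85%). None of the windows of 15 regulators described below (Emx1, Emx2, Lhx2, Fezf2, Pax6, Neurog1, Neurog2, Eomes, Tbr1, Gsx1, Gsx2, Dlx1, Dlx2, Wnt3a and Lmx1a) held these letters, which describes this window only.

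Regulators of the pallium fell, Emx1 by far the most, while Pax6 rose. Of 18 pallial regulators 8 fell and 1 rose, with a median log2 fold change of -0.71, and 8 and 1 were also counted without double KO replicate 4 and with only WT and double KO libraries in the fit. Emx1 (ENSMUSG00000033726, mm10 chromosome 6, 85187438 to 85204462), a homeobox gene of the cortical field, stood at 140, 180, 179 and 113 CPM in WT and at 12.4, 7.99, 9.83, 7.75 and 4.6 CPM in the double KO. The highest double KO library lay far below the lowest WT library, and the fall was 18-fold (log2 -4.17 ± 0.27, adjusted p = 3.16e-08). Its relative Emx2 went from 188, 249, 224 and 161 CPM to 51.2, 76.2, 71, 86.7 and 49.8 CPM. This fall was smaller, 3.07-fold (log2 -1.62 ± 0.17, adjusted p = 1.19e-05), again with no overlap of libraries. Lhx2, the LIM-homeobox selector that sets cortex against hem, was found at 800, 702, 795 and 722 CPM in WT against 212, 303, 279, 269 and 220 CPM. The zinc-finger gene Fezf2 was found at 122, 114, 119 and 97.9 CPM against 23.5, 30.9, 32.8, 27.4 and 25.6 CPM. Both fell with tight groups, Lhx2 2.94-fold (adjusted p = 2.03e-07) and Fezf2 4.04-fold (adjusted p = 3.16e-08).

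Further pallial genes fell less than Emx1. Otx1 went from 132 ± 6.88 to 61.9 ± 13.9 CPM (SD, n = 4 and 5) and Tfap2c from 72.8 ± 4.49 to 32.3 ± 5.74 CPM. The groups did not overlap for either gene (adjusted p 0.000221 and 0.000198). Neurog1, a proneural gene of the pallium, went from 29.4, 43.6, 34.5 and 27.2 CPM to 7.29, 12.7, 14.9, 18.1 and 8.81 CPM, a 2.72-fold fall. Pax6, the homeobox gene of radial glia, moved the other way, from 194, 157, 160 and 194 CPM to 287, 275, 283, 290 and 459 CPM. Replicate 5 was the highest, and every double KO library exceeded every WT library (log2 0.85 ± 0.15, adjusted p = 0.00208). Nr2f1, a regulator of caudal cortex, had a log2 fold change of -0.51 ± 0.22 (adjusted p = 0.234).

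Neurog2, Eomes, Nhlh1 and Neurod1, proneural and intermediate progenitor genes of the glutamatergic lineage, fell, and 8 of the 14 genes of their list were not called. Of these 14 genes of intermediate progenitors and new glutamatergic neurons 5 fell and 1 rose (median log2 -0.21), and without double KO replicate 4 the numbers were 5 and 3. With only WT and double KO libraries in the fit 3 fell and 0 rose. Neurog2, which drives glutamatergic neurogenesis, stood at 290, 167, 246 and 248 CPM in WT and at 55.4, 64.3, 54.9, 47.1 and 72.8 CPM in the double KO. Eomes, the T-box factor of intermediate progenitors, stood at 255, 142, 188 and 213 CPM and at 46.6, 47.1, 45.1, 42.4 and 62.3 CPM. The 5 double KO libraries were close together for both genes and all were below WT, with falls of 4.03-fold and 4.1-fold (adjusted p 5.18e-07 and 6.63e-07). Nhlh1 and Neurod1, helix-loop-helix genes of newly formed neurons, fell 5.48-fold and 4.6-fold (adjusted p 2.84e-08 and 1.76e-06), also without overlap. Sstr2 and Mfap4, the other members that fell, overlapped between the groups, and Mfap4, at an adjusted p of 0.0495, lost its call when any library other than double KO replicate 4 was left out. Insm1, a factor of basal progenitors in both dorsal and ventral telencephalon, rose 1.43-fold (adjusted p = 0.015), with overlap, and was not called in the fit of WT and double KO alone or without WT replicate 2 (adjusted p = 0.0537).

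Glutamatergic projection neuron genes split into a few very large falls and many members near 0. Of 21 such genes 6 fell and 0 rose, the median log2 fold change was -0.05, and 6 fell also without double KO replicate 4. Neurod6, a factor of cortical projection neurons, stood at 177, 25.5, 98.5 and 97.1 CPM in WT and at 6.02, 0.868, 0.979, 0.639 and 1.48 CPM in the double KO. Neurod2 stood at 193, 32.9, 106 and 126 CPM and at 10, 4.2, 3.25, 2.94 and 5.81 CPM. WT replicate 2 was the lowest WT library for both and still exceeded every double KO library. The falls were 50.5-fold and 21.8-fold (adjusted p 1.55e-05 and 6.26e-06). Slc17a7, the vesicular glutamate transporter VGLUT1, went from 39.2, 14.9, 28.2 and 25.1 CPM to between 2.1 and 2.76 CPM, and the vesicle protein gene Sv2b fell 22.4-fold from a WT range of 3.52 to 12.6 CPM. Tbr1, the T-box factor of early deep-layer neurons, fell only 1.91-fold, from 268, 175, 226 and 300 CPM to 125, 102, 113, 97.4 and 196 CPM. Double KO replicate 5 overlapped WT replicate 2, and the call was lost with only WT and double KO libraries in the fit (adjusted p = 0.0719). Bhlhe22 also fell (4.88-fold, adjusted p = 0.0018, with overlap), while Bcl11b and Sox5 had log2 values of 0.22 and -0.05 and were not called. Slc17a6, the transporter VGLUT2, stood at 49.6 ± 14.5 and 32.5 ± 15.5 CPM (adjusted p = 0.219).

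Ligands of the cortical hem fell as a group. Of 16 Wnt, Bmp and R-spondin genes tested 11 fell and 1 rose, with a median log2 fold change of -2.03, and 12 fell without double KO replicate 4. With only WT and double KO libraries 7 fell, and with the pseudogene covariate 1 fell (Wnt3a), at a median of -0.84. Wnt3a, the ligand that marks the hem, held 373, 304, 341 and 401 counts in WT and 2, 0, 1, 17 and 1 counts in the double KO. It fell 72.7-fold, with the residual signal highest in replicate 4 (log2 -6.18 ± 0.6, adjusted p = 5.35e-06). Rspo1, Rspo2 and Rspo3, secreted amplifiers of Wnt signals, fell 6.42-, 7.62- and 7.94-fold with no overlap of libraries (adjusted p 0.000504, 4.5e-06 and 6.81e-06). Wnt8b, a ligand of the medial pallium, stood at 67.3, 63.1, 42.9 and 75.6 CPM in WT against 7.68, 16.7, 13.3, 23.9 and 26.8 CPM. Every double KO library was below WT and the fall was 3.52-fold (adjusted p = 0.00132). Wnt9a, Wnt2b, Bmp2, Bmp5, Bmp6 and Bmp7 fell between 3.04-fold and 8.59-fold. Of these, Wnt2b, Bmp2, Bmp5 and Bmp7 were not called with only WT and double KO libraries, and Bmp5 (adjusted p = 0.0356) lost its call without any 1 of WT replicates 1 and 4 and double KO replicates 1, 2, 3 and 5.

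Not all ligands of this list followed. Bmp4 was at 1.32, 1.14, 1.47 and 0.702 CPM in double KO replicates 1, 2, 3 and 5, at 16.6 CPM in replicate 4 and between 6.08 and 15.4 CPM in WT, and was not called (log2 -1.23 ± 0.74, adjusted p = 0.442). The 4 low libraries are those with few mesenchyme transcripts. Wnt7a, made broadly in the ventricular zone, rose 1.51-fold (adjusted p = 0.00927) with overlap between the groups and was not called with only WT and double KO libraries. Wnt7b and Wnt5a had log2 values of -0.05 and -0.44 and were not called.

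Transcription factors of the dorsal midline changed in both directions. Of 14 tested 3 fell and 2 rose (median log2 -0.49), and 7 fell and 1 rose without double KO replicate 4. Lmx1a, the LIM-homeobox factor of hem and choroid plexus, stood at 18, 20.2, 19.8 and 17.7 CPM in WT and at 1.47, 2.37, 2.76, 3.88 and 1.33 CPM in the double KO, a 7.99-fold fall (adjusted p = 4.73e-07). Id4, an inhibitor of helix-loop-helix factors, fell 1.83-fold, from 402 to 444 CPM in WT to 194 to 251 CPM. Id3, a Bmp target, also fell, but WT replicate 2 held 222 CPM against 54.6 to 103 in the other WT libraries, and its call was lost without WT replicate 2 or 3 (adjusted p 0.178 and 0.0585) or without double KO replicate 1 or 2 (0.0642 and 0.0853). Zic1, a zinc-finger gene of the dorsal midline and septum, rose in contrast, from 247, 286, 223 and 319 CPM to 424, 413, 433, 520 and 468 CPM (log2 0.75 ± 0.15, adjusted p = 0.004). Zic4 had an adjusted p of 0.0464 and lost its call when any 1 of 7 libraries was left out, WT replicates 1, 2 and 3 and double KO replicates 1, 3, 4 and 5. Msx1 and Msx2, Bmp targets, had log2 values of -1.41 and -2.22 and were not called.

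Targets of Wnt signalling fell in 10 of 17 cases and receptors in 4 of 17. Of the targets and feedback genes 0 rose (median log2 -0.76), and 12 fell without double KO replicate 4, 3 with only WT and double KO libraries, 4 with the mesenchyme score as a covariate and 0 with the pseudogene covariate, where Apcdd1 changed sign. Sp5, a direct Wnt target, stood at 14.5, 24.3, 22 and 17.6 CPM in WT and at 0.929, 0.776, 2.8, 1.75 and 0.624 CPM in the double KO, a 14.2-fold fall (adjusted p = 7.16e-06). Tnfrsf19, a receptor induced by Wnt signals, fell 3.74-fold (adjusted p = 0.000201), and Sfrp1, a secreted Wnt antagonist, fell 1.83-fold from 522 to 609 CPM to 248 to 399 CPM. Lef1 and Axin2, general readouts of the pathway, fell 2.34-fold and 2.24-fold (adjusted p 0.00692 and 0.0128), with 45.3 and 61.9 CPM in replicate 4 against at most 22.7 and 42.8 CPM in the other double KO libraries. Axin2 was not called without WT replicate 4. Wif1, a Wnt inhibitor, fell from 7.12 to 8.46 CPM to 4.13 CPM in replicate 4 and to 0.0445 to 0.195 CPM in the other 4 libraries, and its call was lost with DESeq2 and without any 1 of 6 libraries (WT replicates 1 and 3 and double KO replicates 1, 2, 3 and 5). Replicate 4 was thus the highest double KO library for these 3 genes, as for the mesenchyme genes.

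Of the Wnt receptors 0 rose, and 7 fell without double KO replicate 4. With only WT and double KO libraries 1 fell, with the mesenchyme score as a covariate 2 and with the pseudogene covariate 1. Fzd9, a Frizzled receptor of the medial pallium and hippocampal primordium, had the clearest fall, from 39.9, 27.3, 40 and 33.6 CPM to 8.61, 9, 10.3, 6.69 and 8.19 CPM (4.11-fold, adjusted p = 4.03e-07). Ror2, a receptor for Wnt5a that is also made by mesenchyme, held 31.8 CPM in replicate 4 and 4.45 to 5.77 CPM in the other double KO libraries. Its call was lost with DESeq2 and with only WT and double KO libraries. The calls of Fzd1 and Fzd6 were lost under 7 or more other settings each, among them leaving out WT replicate 4 (adjusted p 0.181 and 0.103).

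Genes of the choroid plexus epithelium and of multiciliated cells fell more than those of any other list described here. Of 17 tested 14 fell and 0 rose, the median log2 fold change was -3.54, and all 14 had no overlap between libraries. Without double KO replicate 4 all 17 fell, and 3 were called with the pseudogene covariate (Ccno, Mcidas and Folr1). Ttr, the thyroid hormone carrier made by the choroid plexus, stood at 235, 50.1, 202 and 123 CPM in WT and at 4.65, 0.548, 0.445, 0.639 and 0.195 CPM in the double KO, a 121-fold fall (adjusted p = 9.54e-05). Gmnc, Mcidas and Ccno, which act in sequence to start multiciliogenesis, fell 74.6-, 22.1- and 20.3-fold (adjusted p 1.43e-05, 4.86e-06 and 4.5e-06). Gmnc had 0 counts in double KO replicates 1 and 5. Folr1, a folate receptor, fell 11.7-fold and Clic6, an epithelial chloride channel, 15.3-fold. Foxj1, the ciliary transcription factor, fell less (3.01-fold), and Aqp1, Sostdc1 and Enpp2, with log2 values of -1.33, -1.07 and -0.43, were not called. For these 3 genes replicate 4 was the highest double KO library, inside or above the WT range.

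Markers of Cajal-Retzius cells, the first-born neurons of the cortical surface, did not move as 1 group. Of 13 tested 2 fell and 1 rose (median log2 -0.09). Trp73, carried by Cajal-Retzius cells of hem origin, stood at 50.3, 28, 34.4 and 50.6 CPM in WT and at 6.55, 11.5, 11.9, 11.5 and 11.3 CPM in the double KO. The fall was 3.87-fold (adjusted p = 4.92e-06), and Ebf2 fell 4.37-fold (adjusted p = 0.000221). Lhx5, a LIM-homeobox gene that is also made in the diencephalon and septum, rose 2.1-fold (adjusted p = 0.00664). Reln, the secreted protein of these cells, stood at 106 ± 37.6 CPM in WT and 87.7 ± 32 in the double KO and was not called (adjusted p = 0.7).

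Among 9 hippocampal regulators 3 fell and 0 rose, all of them nuclear factor I genes. Nfix, the largest, went from 353, 102, 191 and 234 CPM to 53.6, 68, 50.4, 46.8 and 56.7 CPM (3.99-fold, adjusted p = 6.7e-05). Nfib and Nfia fell 2.91-fold and 2.26-fold, and Nfic (log2 -0.58) was not called. Nfix, Nfib and Nfia had no overlap between libraries. Prox1, the factor of dentate granule cells, had a log2 value of 1.06 and was not called. In the subplate list Nr4a2 and Tmem163 fell, 2 of 8, and neither was called with only WT and double KO libraries or without WT replicate 4 (Nr4a2, adjusted p = 0.0668) or WT replicates 2 and 3 and double KO replicate 3, each left out alone (Tmem163, up to 0.107).

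Regulators of the subpallium rose. Of 27 tested 19 rose and 0 fell, with a median log2 fold change of 0.93, and 16 had no overlap between libraries. Without double KO replicate 4 the numbers were 18 and 1 (Ikzf1), with only WT and double KO libraries 13 and 0, with the mesenchyme score as a covariate 11 and 0, and with the pseudogene covariate 1 (Six3) at a median of 1.03. Gsx2 (ENSMUSG00000035946, chromosome 5, 75075601 to 75077893), the homeobox gene that specifies lateral ganglionic eminence progenitors, stood at 22.8, 39.7, 44 and 20.2 CPM in WT and at 86.7, 98.2, 98, 70.1 and 63.3 CPM in the double KO. It rose 2.63-fold with no overlap (log2 1.4 ± 0.22, adjusted p = 0.000716), and its relative Gsx1 rose 3.34-fold from a WT range of 2.58 to 5.67 CPM, a call that was lost with the mesenchyme score (adjusted p = 0.0917).

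The Dlx genes, homeobox targets of these factors, rose as a family. Dlx2 stood at 159, 151, 215 and 149 CPM in WT and at 511, 636, 530, 368 and 520 CPM in the double KO, and Dlx1 at 274, 199, 335 and 208 CPM and at 923, 1040, 757, 467 and 858 CPM. Replicate 4 was the lowest double KO library for both and still above WT. The rises were 3.04-fold for Dlx2, 3.19-fold for Dlx1, 3.54-fold for Dlx5 and 3.45-fold for Dlx6 (adjusted p 2.59e-05, 0.000315, 0.000523 and 0.00174). Six3, which acts in striatal precursors, rose with the smallest spread, from 53.1, 66, 57.5 and 49.5 CPM to 139, 177, 160, 134 and 182 CPM (2.8-fold, adjusted p = 8.59e-07). Isl1, of striatal and cholinergic neurons, rose 2.96-fold and Sp9 3.21-fold. Sp8 rose 1.7-fold but lost its call under 8 other settings, among them leaving out WT replicate 1 (adjusted p = 0.111). Meis2, Zfp503 and Ebf1, also expressed by striatal neurons, had log2 values of 0.43, 0.44 and 0.66 and were not called, and Foxp1 had -0.13.

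Genes of GABA synthesis and transport rose in parallel, 4 of 6 with 0 falling and a median log2 fold change of 1.46. Gad2, a glutamate decarboxylase, stood at 88.8, 62.1, 96.6 and 109 CPM in WT and at 330, 230, 235, 126 and 442 CPM in the double KO (3.06-fold, adjusted p = 0.00164). Gad1, Slc32a1, the vesicular GABA transporter, and Abat rose 3.11-, 3.29- and 2.47-fold. Replicate 4 was the lowest double KO library for all 4 genes, as it was for the summed neuronal markers, and the groups did not overlap.

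In the list of medial ganglionic eminence and Hedgehog genes 7 of 17 rose and 0 fell, with a median of 0.76. Without double KO replicate 4, 10 rose, and with the mesenchyme score as a covariate 1 rose (Ackr3). Nkx2-1, which specifies this most ventral region, was present in WT at 57.9, 60.1, 78.8 and 36.7 CPM and stood at 215, 350, 281, 144 and 179 CPM in the double KO. The rise was 4.01-fold without overlap (log2 2 ± 0.46, adjusted p = 0.0116), and Nkx2-1 is among the genes whose call was lost with that covariate, as are Lhx8 (4.2-fold) and Shh (3.87-fold). Lhx6, of migrating interneurons, rose 3.58-fold (adjusted p = 0.00825), and its call was lost there too. Sst and Npy, interneuron peptides, spread widely in the double KO (8.48 to 225 and 1.36 to 28.4 CPM) and were not called. Of the Hedgehog targets, Hhip rose 2.2-fold, and Gli1 (17.7 to 24.9 CPM in WT, 16.6 to 54.6 in the double KO) was not called. Ackr3, a chemokine receptor of migrating interneurons, rose 1.53-fold with tight groups, from 34.2 to 44.2 CPM to 55.9 to 67.2 CPM.

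**Figure D4:**
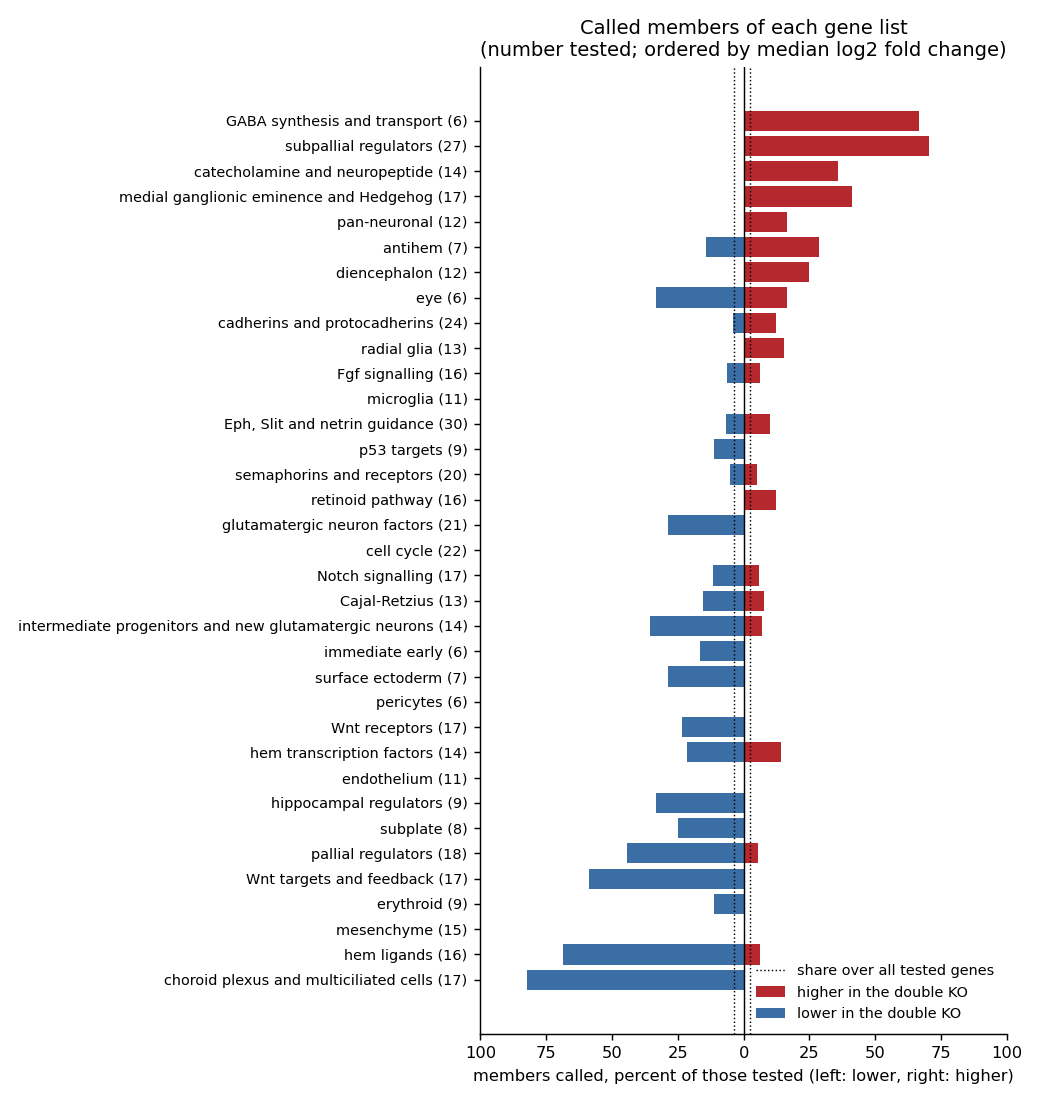
Percent of tested members of each gene list called higher (red, right) or lower (blue, left) in the double KO, with the number tested in brackets and dotted lines at the share over all tested genes (2.42% higher, 3.81% lower). Lists are ordered by median log2 fold change, from choroid plexus (-3.54) at the bottom to GABA synthesis and transport (1.46) at the top.

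Of 7 genes of the antihem, the lateral boundary between pallium and subpallium, 2 rose and 1 fell (median log2 0.61). Sfrp2, a secreted Wnt antagonist of the antihem, rose from 42.1, 37.4, 40.9 and 47.2 CPM to 53.5, 90.1, 95.4, 89.2 and 128 CPM (2.18-fold, adjusted p = 0.00111). Dbx1, a homeobox gene of the ventral pallium, fell 2.13-fold, from 6.11 to 9.14 CPM to 2.15 to 5.29 CPM (adjusted p = 0.00534). Fgf15 rose 2.23-fold with overlap. In the rostral Fgf pathway 1 of 16 genes rose (Fgf3, 2.33-fold) and 1 fell (Fgfr3, 2.75-fold), against 2.42% and 3.81% of all tested genes. Fgf3 and Fgfr3 were not called with only WT and double KO libraries. Fgf8 and Fgf17, the rostral ligands, spread over more than 5-fold within WT (3.68 to 20.5 and 20.5 to 107 CPM), with log2 fold changes of 0.03 and 0.07. Neither was called.

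Transmitter genes of other neuron classes rose in 5 of 14 cases with 0 falling (median log2 0.81). Th, tyrosine hydroxylase, stood at 6.05, 14, 12.1 and 5.41 CPM in WT and at 38.3, 62.6, 48.2, 36.7 and 42.6 CPM in the double KO, a 4.89-fold rise without overlap (adjusted p = 6.7e-05). Ddc and Slc18a2, which with Th make and load catecholamines, rose 2.22-fold and 2.04-fold, and neither was called with only WT and double KO libraries. Gpr83, a receptor, rose 5.84-fold from a WT level of 0.381 to 1.11 CPM, and Tac1 rose 2.61-fold with overlap. In the diencephalon list Gbx2, Tal2 and Lhx5 rose, 3 of 12, and none of the 3 was called with the mesenchyme score as a covariate. Irx1, a marker of this region, stood at 0.516 ± 0.363 CPM in WT and 0.657 ± 0.153 in the double KO. Of 6 eye genes tested 2 fell and 1 rose (median log2 0.37). Among them Dct fell from 17.6, 12.8, 13.7 and 11.8 CPM to between 0.156 and 0.724 CPM. This 34.8-fold fall had an adjusted p of 2.79e-08. The pigment genes Tyr, Tyrp1 and Mlana were under the filter and not tested, and which cells made Dct was not examined. Mitf also fell (2.84-fold).

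Progenitor and cell cycle genes gave few calls. The 22 cell cycle genes summed to 6039, 5988, 5646 and 6195 CPM in WT replicates 1 to 4. In double KO replicates 1 to 5 the sums were 4448, 5239, 5329, 5830 and 5463 CPM. Of the 22, 16 had log2 values below 0 and 6 above (median -0.07). The 13 radial glia genes summed to 4551 to 5945 CPM in WT and to 5408 to 6440 CPM in the double KO. None of 22 cell cycle genes was called by edgeR or by DESeq2, and 2 had an unadjusted edgeR p under 0.05 (Ccne1 and Ccnd2). The lowest was that of Ccne1, a cyclin of S phase entry (log2 -0.48, unadjusted p = 0.00817, adjusted p = 0.0953). Ccne1 was called lower without double KO replicate 4. Mki67, a proliferation marker, stood at 438 ± 94 CPM in WT and 390 ± 116 in the double KO (log2 -0.17 ± 0.18). Of 13 radial glia genes Sox1 and Ednrb rose, 1.36-fold and 1.64-fold, and neither was called with only WT and double KO libraries. Sox2 and Nes had log2 values of 0.29 and 0.09 and were not called. In the Notch pathway Hey1 fell from 91.8 to 103 CPM to 41.6 to 60.6 CPM (1.88-fold, adjusted p = 5.12e-05), Hey2 fell 3.85-fold and the ligand Dll3 rose 1.63-fold, 3 calls among 17. Hes1 and Hes5, the main Notch effectors in progenitors, had log2 values of -0.49 and 0.36 and were not called. Cdkn1a fell 1.79-fold, the only call among 9 p53 targets.

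Pan-neuronal genes had positive values in 12 of 12 cases (median log2 0.62), but only Nefl and Nefm, neurofilament subunits, were called. Nefl stood at 20.7, 16.5, 20.5 and 15.4 CPM in WT and at 62.5, 50.4, 48, 23.8 and 48.2 CPM in the double KO. Replicate 4 was the low library. The list summed to 3498 CPM in replicate 4, to 5903 to 8005 CPM in the other double KO libraries and to 3670 to 4466 CPM in WT, so replicate 4 lay below WT and the other 4 above. Without replicate 4, 8 of 12 rose, and with the mesenchyme score as a covariate 0 were called.

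Guidance and adhesion genes were called in both directions, and 2 retinoid genes rose. Over all tested genes 2.42% rose and 3.81% fell, so the few calls on these lists are given as values of single genes, not as results about the lists. Among 30 Eph, Slit and netrin genes Ntn1 (1.97-fold), Efnb3 (1.64-fold) and Ephb1 (1.44-fold) rose, and Ntng2 (5.42-fold) and Efnb1 (1.37-fold) fell. Ntn1, the midline and striatal guidance cue, went from 78.8, 57.7, 79.2 and 69.9 CPM to 111, 165, 130, 124 and 173 CPM (adjusted p = 0.000369). Among 24 cadherins and protocadherins Cdh22, Cdh20 and Pcdh8 rose 2.18-, 2.29- and 2.14-fold and Celsr1 fell 2.6-fold. Of 20 semaphorins and receptors Sema4a rose 1.84-fold and Plxnd1, which endothelium also makes, fell 2.2-fold, with 107 CPM in replicate 4 and 44.7 to 55.5 in the other double KO libraries. The nuclear receptors Rxrg and Rara rose, 2 of 16 retinoid genes, and neither was called with only WT and double KO libraries.

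Other genes named for the size of their change included both little studied and well known ones. Pdlim3 rose 8.18-fold from 1.14 to 1.62 CPM to 3.37 to 23.2 CPM, Rpp25 4.94-fold and Mab21l2 4.2-fold, with replicate 4 the lowest double KO library for all 3. Pdlim3 and Mab21l2 lost their call with the mesenchyme score as a covariate (adjusted p 0.0864 and 0.223). Pax3, a dorsal neural tube factor, rose 5.07-fold, and there replicate 4 was the highest at 10.4 CPM. Slc30a3, a synaptic zinc transporter, rose 4.55-fold with a narrow range of 6.22 to 12.3 CPM against 1.75 to 2.54 in WT (adjusted p = 4.5e-06). Gas1, a Hedgehog co-receptor, fell 3.73-fold, from 315, 328, 314 and 391 CPM to 53, 88.3, 85.1, 157 and 68.5 CPM. Rbm20 fell 9.82-fold, and Slc14a1, a urea transporter, rose 3.96-fold. Among abundant transcripts Peg10 rose 1.94-fold, a call lost with the mesenchyme score (adjusted p = 0.081), and Cd24a and Celf3 rose 1.56-fold and 1.66-fold with calls that were lost with only WT and double KO libraries.

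Mesenchyme and endothelium genes gave 0 calls by edgeR with all libraries, and 13 and 7 lower genes without double KO replicate 4. Of 15 mesenchyme, 11 endothelium and 6 pericyte genes 0 were called by edgeR, 3, 5 and 1 had an unadjusted p under 0.05, and DESeq2 called 1 (Postn), 1 (Tek) and 0, although 15, 10 and 6 had values below 0 (medians -1.11, -0.51 and -0.25). Without replicate 4, 13, 7 and 2 of them were lower. Col1a1, a collagen gene, stood at 52.8, 19.3, 16.5 and 1.52 CPM in replicates 1, 2, 3 and 5, at 421 CPM in replicate 4 and at 140 to 746 CPM in WT. None of 11 microglia genes was called by edgeR or DESeq2 or had an unadjusted edgeR p under 0.05, and their summed level was 77.8 to 105 CPM in WT and 43.9 to 115 in the double KO. Egr1, an immediate early gene, fell, 1 of 6 on its list. Slc4a1 was the 1 erythroid gene of 9 that fell, in groups that overlapped. Krt8 and Krt18 of the surface ectoderm list fell, 2 of 7, and neither was called without WT replicate 2 (adjusted p 0.0869 and 0.0877). Mesenchyme and endothelium genes were thus low in the same 4 libraries in which subpallial and neuronal genes were highest, and their part in those results was not tested.

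The double KO was then compared with each single KO, to see where loss of both factors differs from loss of one. Only the regulators named in the rule are described, and all comparisons share the double KO libraries. Against Dmrt5 KO 2 genes were higher in the double KO and 52 lower (0.0123% and 0.32% of those tested), the 2 being Smoc1 and Foxn4, and against Dmrt3 KO 282 were higher and 318 lower (1.74% and 1.96%). Dmrt5 KO replicate 1 held 25.1 CPM of Dmrta2, against 4.31, 6.94 and 6.57 CPM in replicates 2, 4 and 5. Its Emx1 was the highest of that group, 106 CPM against 65.2, 59.2 and 64.3 CPM. Its Xist level (log2 CPM 4.74) lay between those of the high and low libraries. The part of this library in the comparisons with Dmrt5 KO was not tested. Emx1 stood at 73.6 ± 21.6 CPM in Dmrt5 KO (SD, n = 4) and 169 ± 38.5 in Dmrt3 KO (n = 5). The 5 double KO libraries, at most 12.4 CPM, lay below every library of both single KOs, with log2 differences of -3.11 ± 0.26 and -4.31 ± 0.26 (adjusted p 3.52e-06 and 2.8e-08). Neurog2 stood at 204 ± 31 CPM in Dmrt5 KO and Eomes at 164 ± 19.6 CPM, and neither differed from WT there by the test (log2 -0.22 and -0.28, adjusted p 0.673 and 0.576). In the double KO they were lower than in Dmrt5 KO by 1.79 ± 0.16 and 1.75 ± 0.17 on the log2 scale (adjusted p 8.01e-06 and 1.53e-05). Neurog1 had 36.4 ± 2.53 CPM in Dmrt5 KO, a log2 difference of -1.56 ± 0.22 (adjusted p = 0.00187). Fezf2, Emx2 and Wnt3a were also lower in the double KO than in Dmrt5 KO (log2 -1.09, -0.82 and -4.29, adjusted p 0.00021, 0.0434 and 0.00131). Lhx2 and Lmx1a were not called in that comparison (log2 -0.47 and -1.1, adjusted p 0.127 and 0.0511), with intervals of 2 SE either side of -0.70 to -0.24 and -1.57 to -0.64.

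The regulators that rose against WT gave no call against Dmrt5 KO. Gsx2 had a mean of 58 ± 9.52 CPM with Dmrt5 lost alone and 83.3 ± 16 with both lost, a log2 difference of 0.52 with an interval of 0.09 to 0.95 (adjusted p = 0.857). Dlx2 stood at 356 ± 37.5 CPM and Six3 at 114 ± 9.31 CPM in Dmrt5 KO, with log2 differences to the double KO of 0.53 (interval 0.18 to 0.88, adjusted p = 0.521) and 0.48 (interval 0.24 to 0.72, adjusted p = 0.158). Dlx1, Isl1 and Pax6 gave log2 differences of 0.51, 0.67 and 0.28 and were not called either, which does not show that the genotypes are alike. Against Dmrt3 KO all of these were higher in the double KO, from 0.62 for Pax6 to 1.53 for Isl1 on the log2 scale (adjusted p at most 0.0168). Dmrt3 KO libraries lay below WT and above the double KO in the number of processed pseudogenes detected. The median log2 difference of processed pseudogenes, double KO minus Dmrt3 KO, was -0.37, and 4 of them were called. Against Dmrt5 KO that median was -0.64, and 6 were called, so this difference is present in both comparisons. Of the 362 protein-coding genes higher and 405 lower against WT, 362 and 401 had the same sign against Dmrt3 KO, the exceptions being Ston2, Xylt1, Dmd and Gm15294. These genes were chosen with the same double KO libraries, which favours the same sign, so the counts are no independent support.

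**Figure D5:**
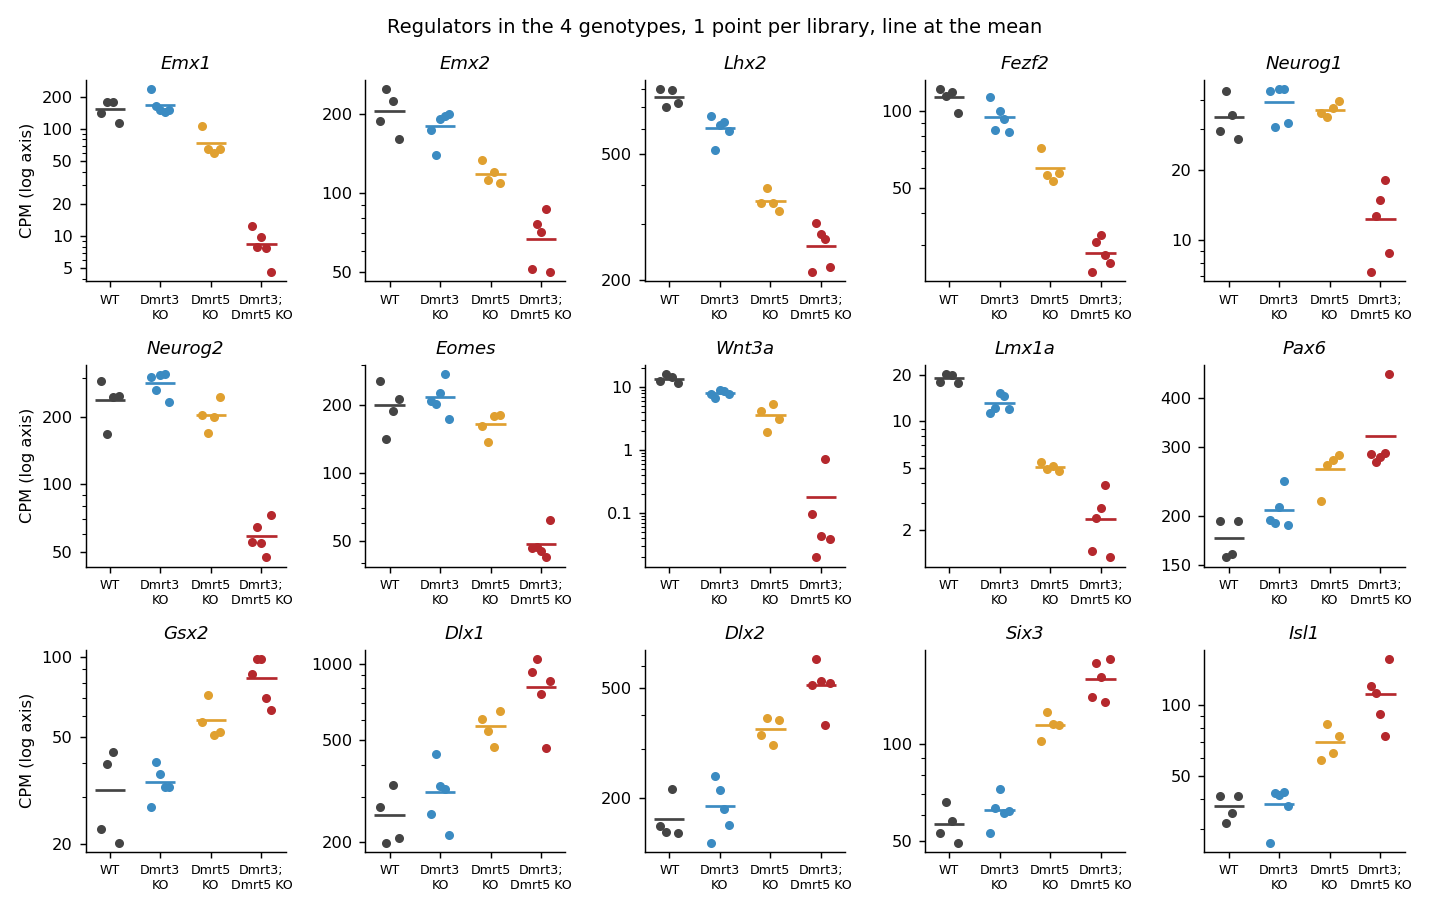
CPM of 15 regulators (log axes that differ between panels) in the 18 libraries, 1 point per library with a line at the mean, for WT, Dmrt3 KO, Dmrt5 KO and the double KO (the Wnt3a library with no count is drawn at the bottom of its panel). For Emx1, Neurog1, Neurog2, Eomes, Fezf2 and Wnt3a all 5 double KO libraries lie below all other 13, and Gsx2, Dlx1 and Dlx2 have double KO means above those of Dmrt5 KO without a call.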

How the data were processed

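RNA-seq of cortical tissue was deposited as 1 table per library. Each table holds raw counts per Ensembl gene, as deposited by the authors, with no normalisation (5 summary entries per file were 0). The submitters' processing notes list the build mm10 and, with no role or order, DESeq2 1.8.2, featureCounts 1.4.6-p1 and STAR 2.3.0e among the tools. Per the labels' protocols the kit (TruSeq RNA v2) does not mark strand. No source used here gives the annotation or the handling of multi-mapping reads. Symbols come from GENCODE M21 (GRCm38), with 36602 identifiers matched; unmatched ones held 0.397% of counts.

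Counts of all 18 libraries were fitted in edgeR 4.0.16 (filterByExpr, trimmed mean of M-values, glmQLFit, glmQLFTest), with 1 mean per genotype. DESeq2 1.42.0 was an alternative. On simulated data for double KO against WT, with 16082 genes in the fit, 22%, 56%, 84% and 92% of genes changed 1.5-, 2-, 3- and 4-fold were called, with 5 false calls. The simulation was run once and drew each gene independently. It held none of the shifts shared by many genes that are seen between these libraries. Its recovery and false calls therefore need not hold for the real data.

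Named genes were the targeted genes and regulators of telencephalic patterning. To these were added up to 12 called protein-coding genes per direction by fold (mean log2 CPM at least 1, no overlap of libraries, so lack of overlap is there a condition) and up to 6 by CPM difference. Up to 4 called members per direction came from each of 35 gene lists, or the lowest p where none was called. The genes, lists and comparisons were chosen with earlier results of these data known, so they are no independent support. Genes under the filter, such as Wnt8a, Gdf7, Kl, Prlr, Cldn2 and Tyr, were not tested. Some genes selected by the rule are not reported here.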

Additional observations from a re-analysis of the deposited data

Results flagged for a closer look

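Single libraries stood far from the rest of their group, by Dixon's test of log2 CPM at the 95% level, for 13 of 256 gene and group pairs examined. Chance flags about 1 pair in 20, so the number of flags is near that given by chance, and they are listed as values only. Double KO replicate 5 gave 6 of them. Pax6 stood at 459 CPM there against 275 to 290 in the other double KO libraries, Eomes at 62.3 against 42.4 to 47.1 and Peg10 at 676 against 385 to 429. Nr4a2 stood at 26 CPM against 13.7 to 15.2, Celsr1 at 104 against 51.4 to 60.6, and Folr1 was low at 0.117 against 0.457 to 0.724. This library had the steepest slope of expression on transcript length and the lowest mesenchyme sum, and their part in these values was not tested. Double KO replicate 4 gave 4. Ror2 stood at 31.8 CPM against 4.45 to 5.77, Hey2 at 6.09 against 1.44 to 2.15 and Plxnd1 at 107 against 44.7 to 55.5, while Nefl was low at 23.8 against 48 to 62.5. Double KO replicate 1 was low for Id4 (194 CPM against 233 to 251) and Trp73 (6.55 against 11.3 to 11.9). WT replicate 3 was high for Dlx2 (215 CPM against 149 to 159), below every double KO library.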

How the results depend on the processing

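None of the 120 named genes called changed direction under the 18 alternatives, while Nr2f1, not called, went from -0.51 to 0.04 with the pseudogene covariate. The number of higher genes was 656 with DESeq2, 131 with only WT and double KO libraries, 122 with the mesenchyme score as a covariate, 1588 with the slope on length as covariate and 7 with the pseudogene covariate. The number of lower genes was 237 with only WT and double KO libraries, 283 with the mesenchyme score, 1582 with the length slope, 33 with the pseudogene covariate and 405 when protein-coding genes alone are counted. Leaving out 1 library gave 252 (without WT replicate 3) to 734 (without double KO replicate 4) higher and 465 (without double KO replicate 2) to 1272 (without double KO replicate 4) lower genes. The mesenchyme and pseudogene measures differ between the groups, so these covariates share their variation with genotype; otherwise the cause of these shifts was not tested. Of the 120 named genes called, 38 lost the call with only WT and double KO libraries, 42 with the mesenchyme score, 96 with the pseudogene covariate, 7 with the replicate block, 3 with the Xist level, 1 with DESeq2 and 0 with the length slope. With the replicate block 472 genes were higher and 759 lower. Same-numbered WT and double KO libraries deviated from their group means with correlations of -0.28, 0.26, 0.51 and 0.20, so the numbers were not taken to pair libraries. In the simulation, which held no shifts shared by many genes, 22% of genes changed 1.5-fold were called. Small differences were thus often missed there at this depth and number of libraries.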

Other observations

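Genes outside the lists, chosen after their values had been seen, are given here as values. Antisense and neighbouring transcripts moved with the regulators beside them: Emx2os fell from 23.8 to 7.19 CPM (log2 -1.73 ± 0.15, adjusted p = 1.64e-06), Six3os1 rose from 68.8 to 169 CPM (log2 1.3 ± 0.17, adjusted p = 0.000101) and Dlx6os1 rose from 72.7 to 210 CPM (log2 1.53 ± 0.28, adjusted p = 0.00229). The kit does not mark strand, so reads of Emx2os, Six3os1 and Dlx6os1 cannot be told apart from those of an overlapping partner. Smoc1, a secreted matrix protein gene, rose from 26.5 to 79.3 CPM (log2 1.58 ± 0.12, adjusted p = 4.03e-07), with all 5 double KO libraries above WT, and was also higher than in Dmrt5 KO, at 47.1 CPM (log2 0.75, adjusted p = 0.00529). Foxn4, a factor of retinal and spinal progenitors, rose from 0.44 to 3.07 CPM (log2 2.8 ± 0.38, adjusted p = 0.00017) and stood at 0.964 CPM in Dmrt5 KO (log2 1.66, adjusted p = 0.0488). Prr15 and Fam184b fell from 14 to 2.32 CPM and from 8.82 to 1.38 CPM (log2 -2.59 and -2.68, adjusted p 3.16e-08 and 1.31e-07), both without overlap.

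In the imprinted Dlk1-Dio3 cluster 4 of 6 tested genes rose and all 6 had positive values (median log2 0.86). Rian rose from 204 to 378 CPM (log2 0.89 ± 0.2, adjusted p = 0.00979), Rtl1 from 3.8 to 7.13, Mirg from 24.2 to 42.3 and Dlk1 from 161 to 318. Meg3 stood at 383 and 682 CPM and was not called (log2 0.83 ± 0.28, adjusted p = 0.0967). The cluster summed to 820, 678, 660 and 970 CPM in WT and to 1295, 1384, 1300, 1167 and 2038 CPM in the double KO, with replicate 5 the highest. With only WT and double KO libraries in the fit 1 of the 6 was called, and with the mesenchyme score or the pseudogene covariate 0. Dlk1 and Mirg, whose libraries overlapped between the groups, lost their calls without WT replicate 1, 3 or 4 or double KO replicate 2 or 3, and Mirg also without double KO replicate 1 (without WT replicate 1, adjusted p 0.0876 and 0.119). The imprinted genes Nap1l5 and Asb4 rose as well (log2 1.5 and 1.07), and Plagl1 fell with overlap between the groups (log2 -0.97, adjusted p = 0.00582). Plagl1 was not called with only WT and double KO libraries or with the mesenchyme score (adjusted p 0.0856 and 0.0518). With the pseudogene covariate none of Nap1l5, Asb4 and Plagl1 was called (adjusted p 0.469, 0.235 and 0.509).

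Of 45 dynein, Cfap, Rsph and Drc genes of the ciliary axoneme, taken by their symbols, 11 fell and 0 rose (median log2 -0.30). With only WT and double KO libraries 5 were lower, with the mesenchyme score as a covariate 8 and with the pseudogene covariate 0. Cfap161, Drc7 and Dnah6, which fell in the main fit, have no result with only WT and double KO libraries. They were under the filter on low counts there, so they were not tested rather than lost. Those that fell had low levels: Cfap65 went from 4.55 to 0.297 CPM, Rsph4a from 2.06 to 0.181 and Dnah6 from 1.45 to 0.0712. The family's summed level, 281 to 360 CPM in WT and 272 to 352 in the double KO, overlapped between the groups. Much of it came from Cfap20, Cfap36 and Cfap298 (85.3, 53.8 and 35.9 CPM in WT), which were not called. The sum therefore says little about the members that fell.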
